A study of Mus musculus with 16 samples.

Results

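The genes described here are enzymes and cofactors of DNA methylation and chromatin that are recurrently mutated or targeted in acute myeloid leukaemia (AML). The selection names 10 genes and takes their rows from a table of raw read counts for 23999 gene symbols. Of the 10, 8 had a row: Dnmt1, Dnmt3a, Dnmt3b, Tet2, Tet3, Ezh2, Asxl1 and Men1. Idh1 and Idh2 were not analysed here. All 8 passed the filter on low counts used for testing.

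RNA sequencing of poly(A) RNA was carried out on 16 libraries from 12 labelled mice that carried NPM1cA, the mutant form of nucleophosmin found in AML. Marrow came from 9 NPM1cA/SMC3+/- mice, and myeloid sarcomas, which are solid tumours of AML cells outside the marrow, came from 4 NPM1cA/SMC3+/- mice. Mice 948 and 2721 gave 2 tumours each, and mice 1267 and 2721 gave both tissues. The label 1268_1270 may name a single mouse or a pool, and it was counted as 1 mouse. A further sarcoma, from mouse 841, was NPM1cA with wild-type SMC3, the cohesin subunit gene that is heterozygous in all the other animals. The sources used here give no ages, no promoter of a transgene or Cre and no share of leukaemic cells. Sarcomas went directly into Trizol, whereas marrow was crushed from bone, filtered and cleared of red cells, so tissue and handling cannot be told apart.

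DNA methylation at CpG sites is copied to new strands after replication by the maintenance enzyme DNMT1 and is laid down at new sites by DNMT3A and DNMT3B. TET enzymes start its removal by oxidising methylcytosine, using 2-oxoglutarate that isocitrate dehydrogenases supply. EZH2 methylates lysine 27 of histone H3, ASXL1 is a cofactor of the BAP1 deubiquitinase that acts on histone H2A, and menin, the product of Men1, tethers MLL methyltransferases to the HOX and MEIS1 loci on which NPM1-mutant leukaemia depends.

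Library totals ranged from 12395041 to 39197660 counts for marrow and from 12072482 to 33605464 for SMC3+/- sarcoma, and the tumour of mouse 841 had 9797201. A set of 4 libraries, marrows 737, 779 and 782 and tumour 1 of mouse 948, are set apart throughout as short of long transcripts. The median log2 deviation of transcripts over 6 kb was -2.23, -2.32 and -2.12 in those marrows and -0.58 in that tumour. Among the other 12 libraries it ran from -0.74 to 0.44, and its lowest value, in marrow 1267, was below that of tumour 1 of mouse 948. Levels are CPM, read counts relative to library totals scaled by TMM, a normalisation that centres the bulk of genes, and a tissue value of a mouse is the mean over its tumours. The label of sarcoma 1268_1270 was not matched by its markers. Its 16 pan-leukocyte genes summed to 823 CPM, against 9088 to 17159 CPM in the 6 marrows outside this set, and its Mpo and Elane, granule genes of myeloid cells, stood at 21.8 and 46.6 CPM. Its 12 adipocyte genes summed to 49291 CPM, against 268 to 691 CPM in those marrows, with Fabp4 at 15209 CPM and Adipoq at 4698 CPM. In such bulk samples fewer cells of a type and less RNA per cell cannot be told apart.

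Dnmt1 and Ezh2 followed each other over the 12 libraries with a Pearson r of 0.869 of log2 CPM, just above 0.867 for Tet2 with Tet3. This describes libraries that share mice and tissues. Sarcoma 1268_1270 was the lowest of the 12 for Dnmt1 and Ezh2, and marrow 1267 for Tet2 and Tet3. Values of r without them were not computed. The promoters of Dnmt1 and Ezh2 are shown because, of the 8 genes, these ordered the sarcoma mice as proliferation genes did. That order leaves out the short library of mouse 948, and the share of all genes that match it was not counted. The windows are RefSeq's, on GRCm38.p6, a later build than the mm9 named for the counts, and span 300 bases around a transcript's start. All windows of the 8 genes, at least 1 per gene, were searched on both strands for TTTCCCGC and TTTGGCGC, forms of the site bound by the cell cycle factors of the E2F family, and for TTTGAA, the core of the cell cycle homology element. No match of a motif overlapped a match of another in the windows printed. The Dnmt1 window printed is the 1 of 3 that held TTTGGCGC. It lies at chr9:20952574-20952873 and the Ezh2 window at chr6:47594981-47595280, both on the minus strand and written 5′ to 3′ with TTTGGCGC in capitals.
Dnmt1: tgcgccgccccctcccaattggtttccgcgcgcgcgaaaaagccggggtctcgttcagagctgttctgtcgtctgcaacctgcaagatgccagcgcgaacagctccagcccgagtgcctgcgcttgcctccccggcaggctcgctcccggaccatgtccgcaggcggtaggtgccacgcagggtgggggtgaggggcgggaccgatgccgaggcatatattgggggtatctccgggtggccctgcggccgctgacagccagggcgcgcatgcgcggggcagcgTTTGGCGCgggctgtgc
Ezh2: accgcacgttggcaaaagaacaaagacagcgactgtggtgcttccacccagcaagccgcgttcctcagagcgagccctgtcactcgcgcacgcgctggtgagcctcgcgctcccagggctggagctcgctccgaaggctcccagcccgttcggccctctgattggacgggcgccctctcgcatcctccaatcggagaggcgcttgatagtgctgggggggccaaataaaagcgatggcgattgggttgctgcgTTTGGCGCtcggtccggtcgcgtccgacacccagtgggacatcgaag
TTTGGCGC began 33 bases after the start of this window's transcript for Dnmt1 and 3 bases after it for Ezh2. It stood in 1 of 3 Dnmt1 windows, in the only Ezh2 window and in no window of the other 6 genes. The start in the printed Dnmt1 window is 356 bases from that of the Dnmt1 transcript used here for lengths. The Dnmt1 window at that transcript's own start, chr9:20952930-20953229, held no TTTGGCGC. For Ezh2 the printed window is at the start of the transcript used for lengths. Over all 32851 promoter windows of the table, 169 held it (0.514%). TTTCCCGC was in no window of these genes and in 1.07% of all windows. TTTGAA was in 17.9% of all windows and in 1 window each of Dnmt1, Dnmt3b and Asxl1. A match of letters is not a bound site. The windows also held more CpG dinucleotides than the median window, which had 7, with 57 for Tet2, 46, 47 and 18 for Dnmt3a, 30 for Dnmt3b, 31 for Ezh2 and 22 for Tet3. Asxl1 had 13, and Men1 had 11, 16 and 16. The printed Dnmt1 window had 33, and the other Dnmt1 windows had 12 and 2, of which the last is below the median.

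Which of these regulators differ between sarcoma and marrow was asked in the SMC3+/- mice, in a comparison of 4 sarcoma mice with 6 marrow mice that left out the 4 short libraries. Of the 8 genes 0 passed the test in either direction (edgeR's quasi-likelihood test with Benjamini-Hochberg adjustment over 14711 genes, threshold 0.05). Of all genes in the test, 2.04% passed it with a higher and 0.0204% with a lower sarcoma level, or 2.06% in either direction. None of the 8 had an unadjusted p under 0.05, against 1988 of all genes. DESeq2 and limma-voom also called 0 of the 8. The median log2 change of the 8 was -0.56, beside 0.04 for all genes, and 7 of the 8 values were negative. All 7 turned positive with pan-leukocyte scaling, which moved the median of all genes to 2.07. Under that scaling without sarcoma 1268_1270, 3 of these 7, Dnmt1, Dnmt3b and Ezh2, were slightly negative, beside a median of 0.50 for all genes. These medians are a description, and the tissues overlapped for all 8 genes, while they did not overlap for 5.76% of all genes tested (5.32% with sarcomas higher and 0.435% with sarcomas lower). For Tet3 the overlap of the mouse values rested on marrow 1267, at 33.8 CPM. The highest sarcoma mouse was at 100.2 CPM and the next marrow at 101.7 CPM. How many genes overlapped only through that marrow was not counted.

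**Figure D1:**
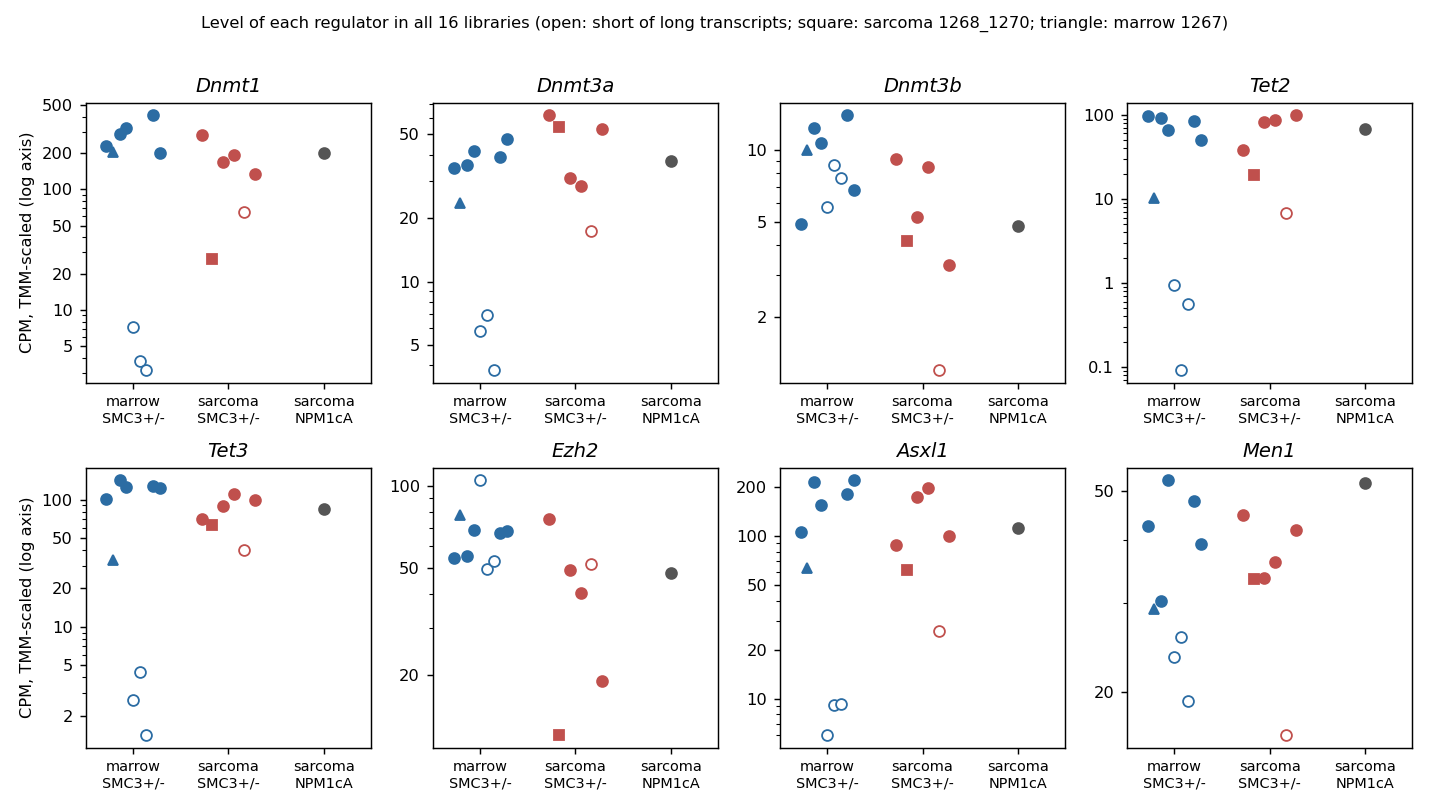
CPM on TMM-scaled totals (log axis, each panel with its own range) of the 8 regulators in all 16 libraries. Each point is 1 library, open points are the 4 short of long transcripts, the square is sarcoma 1268_1270 and the triangle is marrow 1267. The filled points of the tissues overlap for every gene, and the 3 open marrow points of Dnmt1, Tet2, Tet3 and Asxl1 lie far below the filled ones.

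Among the methyltransferases, Dnmt1, the maintenance enzyme, had the highest level per kb of transcript. Its marrow values ran from 200.2 to 410.2 CPM with a median of 259 CPM. In the sarcomas it stood at 135 CPM in mouse 948, 280.1 CPM in mouse 1267, 26.6 CPM in 1268_1270, and 168 and 191 CPM in the tumours of mouse 2721. Every sarcoma mouse except 1267 was below all 6 marrows, and 1268_1270 was the lowest by far. The means were 155 ± 105 CPM in sarcoma (SD, n = 4) and 275 ± 81.7 CPM in marrow (SD, n = 6). Its log2 change was -0.94 ± 0.50 (SE) with a 95% interval from -2.03 to 0.14 (edgeR adjusted p = 0.46). At least 3 of 4 sarcomas were below all marrows for 3.22% of all genes tested. Without 1268_1270 the change was -0.59.

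Dnmt3a, a de novo methyltransferase that is among the genes most often mutated in human AML, was the only regulator of the 8 with a positive change, which turned to -0.39 when the short libraries were added with an offset for transcript length. Sarcoma levels were 53.1 CPM in mouse 948, 61.5 CPM in mouse 1267, 54.2 CPM in 1268_1270, and 30.9 and 28.4 CPM in the tumours of mouse 2721. Marrow levels ran from 23.6 to 47.6 CPM with a median of 37.4 CPM. Sarcomas 948, 1267 and 1268_1270 were above every marrow, whereas mouse 2721 lay within the marrow range. At least 3 of 4 sarcomas were above all marrows for 11.7% of all genes tested. The means were 49.6 ± 13.8 CPM (SD, n = 4) and 37.1 ± 8.04 CPM (SD, n = 6), and the log2 change was 0.32 ± 0.27 with an interval from -0.27 to 0.90 (edgeR adjusted p = 0.678). When libraries were scaled to the pan-leukocyte genes, which moved the median of all genes to 2.07, Dnmt3a changed by 2.59 and was called (edgeR adjusted p = 0.0304), together with 5997 genes higher in sarcoma. Under the same scaling without sarcoma 1268_1270 its change was 0.78 and it was not called (edgeR adjusted p = 0.461), with 216 genes higher. The median of all genes was 0.50 in that fit. Relative to the median of all genes, the change over all 10 samples was 0.52, against 0.28 under TMM. The other 7 genes were not called under that scaling.

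Dnmt3b, the other de novo methyltransferase, was the lowest of the 8 per kb. Its sarcoma levels were 3.30 CPM in mouse 948, 9.15 CPM in mouse 1267, 4.16 CPM in 1268_1270, and 5.22 and 8.49 CPM in mouse 2721. Marrow ranged from 4.91 to 13.9 CPM with a median of 10.3 CPM. Sarcomas 948 and 1268_1270 were below all marrows and the other sarcoma mice lay inside the marrow range. Dnmt3b had a log2 change of -0.86 ± 0.47 with an interval from -1.90 to 0.18 (edgeR adjusted p = 0.487).

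The balance of the de novo enzymes was read as a ratio within each library, which needs no scaling between libraries. The log2 ratio of Dnmt3b to Dnmt3a CPM was -4.01 in sarcoma 948, -2.75 in 1267, -3.71 in 1268_1270, and -2.56 and -1.74 in the tumours of mouse 2721. In marrow it was -1.49 in mouse 919, -2.81 in 949, -2.82 in 1103, -1.24 in 1267, -1.53 in 2721 and -1.96 in 3332. Sarcomas 948 and 1268_1270 were below all marrows, and the others lay within the marrow range. With the counts of a mouse's tumours summed, the mean was -3.15 ± 0.87 in sarcoma (SD, n = 4) and -1.98 ± 0.69 in marrow (SD, n = 6). The difference was -1.17 (2-sided exact permutation p = 0.0476, adjusted p = 0.121 over 3 ratios, smallest possible p = 0.00476 with 210 splits). It therefore missed the threshold once adjusted. Mice 1267 and 2721 are in both groups, and the splits ignore that pairing. With the short libraries added, 13 mouse samples in all, it was -1.96 (exact permutation, adjusted p = 0.0399), but in the short marrows this ratio was -0.02 to 1.00, and Dnmt3a has the longer transcript.

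Tet2 and Tet3 encode dioxygenases that oxidise methylcytosine, and Tet2 is a frequent site of loss-of-function mutations in myeloid malignancy. Tet2 was at 98.5 CPM in sarcoma 948, 38.3 CPM in 1267, 19.3 CPM in 1268_1270, and 82.9 and 87.7 CPM in mouse 2721. Its marrow levels ran from 10.3 to 96.96 CPM with a median of 75.5 CPM. The lowest marrow was that of mouse 1267, which is itself low in long transcripts, and the sarcomas spread over nearly the whole marrow range, with 948 just above it. Tet2 had a log2 change of -0.23 ± 0.58 with an interval from -1.51 to 1.04 (edgeR adjusted p = 0.916), and it turned to 0.06 without 1268_1270.

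Tet3 was at 99.2 CPM in sarcoma 948, 70.4 CPM in 1267, 63.6 CPM in 1268_1270, and 89.3 and 111 CPM in mouse 2721. Marrow ran from 33.8 to 142 CPM with a median of 124 CPM. All sarcoma mice lay inside that range, whose lower end is marrow 1267, with the next marrow at 102 CPM. Tet3 had a log2 change of -0.48 ± 0.36 with an interval from -1.27 to 0.30 (edgeR adjusted p = 0.636). The log2 ratio of Tet3 to Tet2 was 0.71 ± 0.77 in sarcoma (SD, n = 4) and 0.87 ± 0.58 in marrow (SD, n = 6), a difference of -0.16 (2-sided exact permutation p = 0.71, adjusted p = 0.71).

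Ezh2, the catalytic subunit of Polycomb repressive complex 2 (PRC2), had the narrowest spread of the 8 in marrow, with a coefficient of variation of 13.8%, and the widest in sarcoma, with 76.0%. Its sarcoma levels were 19.2 CPM in mouse 948, 75.6 CPM in mouse 1267, 12.1 CPM in 1268_1270, and 48.9 and 40.2 CPM in mouse 2721. Marrow ran from 54.2 to 77.9 CPM with a median of 67.4 CPM. Sarcomas 948, 1268_1270 and 2721 were below every marrow, whereas 1267 was near the top of the marrow range. The means were 37.8 ± 28.8 CPM (SD, n = 4) and 65.1 ± 9.01 CPM (SD, n = 6). The log2 change was -0.92 ± 0.42 with an interval from -1.85 to 0.01 (edgeR adjusted p = 0.377). Leaving out 1 mouse at a time moved it between -1.46 and -0.63, with a lowest adjusted p of 0.094.

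Ezh1 encodes the alternative PRC2 catalytic subunit, which prevails in cells that do not divide. The log2 ratio of Ezh2 to Ezh1 was -2.04 in tumour 2 of mouse 948, 0.91 in sarcoma 1267, -2.92 in 1268_1270, and 0.39 and 0.11 in mouse 2721. In marrow it ran from 0.10 to 1.37. Tumour 2 of mouse 948 and sarcoma 1268_1270 thus stood far below every marrow, and the other sarcomas stood among them. Tumour 1 of mouse 948, a short library, was at 0.24, inside the marrow range. The means were -0.95 ± 1.82 in sarcoma (SD, n = 4) and 0.57 ± 0.43 in marrow (SD, n = 6), with a difference of -1.52 (2-sided exact permutation p = 0.081, adjusted p = 0.121). With all 13 samples the difference was -1.54 (exact permutation, adjusted p = 0.0399), and the short marrows had ratios of 1.15 to 2.67.

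Asxl1 was at 99.2 CPM in sarcoma 948, 87.5 CPM in 1267, 61.8 CPM in 1268_1270, and 173 and 197 CPM in mouse 2721. Marrow ran from 63.0 to 219 CPM with a median of 167 CPM. Sarcoma 1268_1270 was just below the lowest marrow, that of mouse 1267, and the other sarcomas lay within the range. That marrow was itself low in long transcripts, and its part in the Asxl1 range was not tested. The next marrow was at 105 CPM, above sarcomas 948, 1267 and 1268_1270 but not those of mouse 2721. Asxl1 had a log2 change of -0.63 ± 0.40 with an interval from -1.51 to 0.25 (edgeR adjusted p = 0.563).

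Men1, whose product is the target of menin inhibitors in NPM1-mutant AML, varied least among the sarcomas. It was at 41.9 CPM in mouse 948, 44.7 CPM in 1267, 33.4 CPM in 1268_1270, and 33.7 and 36.1 CPM in mouse 2721, inside the marrow range of 29.2 to 52.5 CPM. The means were 38.8 ± 5.45 CPM (SD, n = 4) and 40.3 ± 9.33 CPM (SD, n = 6). Men1 had a log2 change of -0.16 ± 0.23 with an interval from -0.67 to 0.35 (edgeR adjusted p = 0.841).

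**Figure D2:**
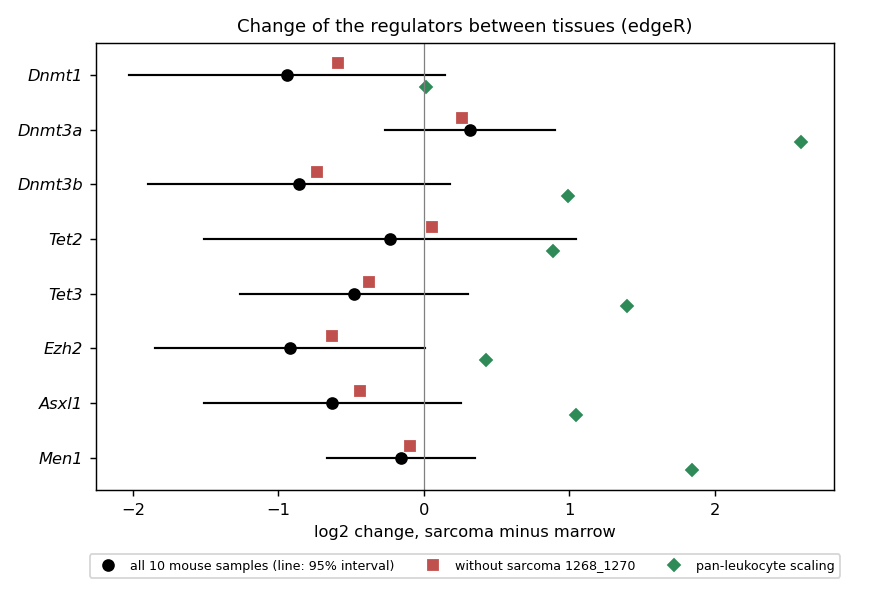
Log2 change of the 8 regulators, sarcoma minus marrow. Black points with lines are the edgeR estimates with 95% intervals over 10 mouse samples, squares leave out sarcoma 1268_1270 and diamonds scale libraries to the pan-leukocyte genes. Every interval includes 0, Tet2 changes sign without 1268_1270, and all diamonds lie above 0 under a scaling that moves the median of all genes to 2.07.

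The mice that gave both tissues did not show a common direction for most of these genes. In mouse 1267 the sarcoma minus marrow log2 difference was 1.90 for Tet2, 1.38 for Dnmt3a, 1.06 for Tet3, 0.61 for Men1, 0.47 for Asxl1 and 0.46 for Dnmt1. In mouse 2721 the same genes gave -0.12, -0.27, -0.50, 0.21, -0.22 and -0.69. Of these 6 only Men1 had the same sign in both mice. Dnmt3b was lower in the sarcoma of both, by log2 differences of -0.13 and -0.85, and so was Ezh2, with -0.04 and -0.31. The marrow of mouse 1267 was low in long transcripts, and the part of that in its differences was not tested. Between the tumours of mouse 2721 the ratio of tumour 1 to tumour 2 lay between 0.61 for Dnmt3b and 1.22 for Ezh2.

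Sarcoma 1268_1270 was the lowest of the 4 sarcoma mice for 6 of the 8 genes, all but Dnmt3a and Dnmt3b. The size of its shortfall differed between genes. Dnmt1 in it was 10.5-fold below the highest sarcoma mouse, Ezh2 6.27-fold and Tet2 5.11-fold, whereas Men1 was 1.34-fold and Tet3 1.58-fold below. Its 20 proliferation genes, such as Mki67 and cyclins, had a mean log2 CPM of 2.10, against 4.99 in tumour 2 of mouse 948, 6.23 and 6.27 in mouse 2721, 6.97 in mouse 1267 and 6.08 to 7.01 in the 6 marrows. The summed proliferation level was 115 to 3108 CPM over these sarcoma libraries and 1917 to 3282 CPM over the marrows, with no gene of the list at 0. The order of the 4 sarcoma mice by this list, from 1268_1270 through 948 and 2721 to 1267, was also their order for Dnmt1 and for Ezh2, and for none of the other 6. The share of all genes with this order was not counted. The place of mouse 948 in it rests on tumour 2. Tumour 1, a short library, had a proliferation mean of 6.60, above both tumours of mouse 2721. Its Dnmt1, at 64.4 CPM, was below both of those, and its Ezh2, at 51.6 CPM, was above both. All 20 proliferation genes and all 16 pan-leukocyte genes had negative changes between tissues, with medians of -0.83 and -0.84 and 0 called in each list, or -0.43 and -0.48 without sarcoma 1268_1270. Of the 14 fibroblast and matrix genes 10 were called higher in sarcoma, where the list summed to 1718 to 13608 CPM against 123 to 5426 CPM in marrow. Without sarcoma 1268_1270, 7 of them were called. Of 10 tested adipocyte genes 3 were called higher, or 1 without that sarcoma, and up to 6 of the 12 listed were at 0 in a marrow, Adipoq among them. The part of cell make-up and of proliferation in the levels of Dnmt1 and Ezh2 was not tested.

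**Figure D3:**
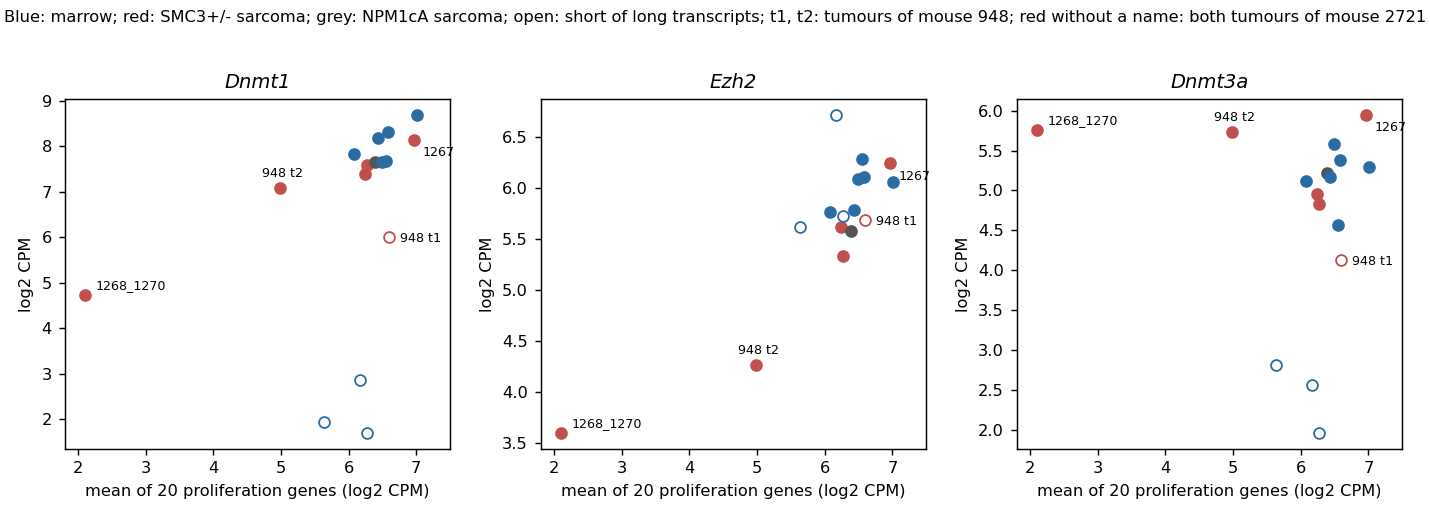
Log2 CPM of Dnmt1, Ezh2 and Dnmt3a against the mean log2 CPM of 20 proliferation genes, 1 point per library. Blue is marrow, red SMC3+/- sarcoma, grey the NPM1cA sarcoma, and open points are short of long transcripts. Sarcomas 1268_1270 and 948 tumour 2 are lowest on the proliferation axis, at 2.10 and 4.99, and lowest among the filled points for Dnmt1 and Ezh2, while their Dnmt3a is among the highest.

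Which genes followed each regulator over the 12 libraries was described by the Pearson correlation of log2 CPM with 9033 genes, over libraries that share mice, tissues and depth. Sarcoma 1268_1270 was the lowest of the 12 for Dnmt1, at a log2 CPM of 4.74 against 7.07 to 8.68 in the others. It was also lowest for Ezh2, at 3.60 against 4.27 to 6.29. The genes most like Dnmt1 were Bub1b, a mitotic checkpoint kinase (r = 0.99), and Arhgap11a (r = 0.98). Those most like Ezh2 were Lig1, the DNA ligase of replication (r = 0.98), and H2afx, a histone variant of the DNA damage response (r = 0.97). Tet2 was most like Zfp871 (r = 0.97) and the kinase gene Braf (r = 0.96). Tet3 was most like Sbf1 (r = 0.99) and the Mediator subunit gene Med12 (r = 0.97), and Asxl1 was close to Scrib (r = 0.96). No gene was as close to the remaining 3, with values of at most 0.89. These were Arcn1 (r = 0.89) and Yme1l1 (r = 0.87) for Dnmt3a, Smarcc1 (r = 0.89) and Eftud2 (r = 0.88) for Dnmt3b, and Golga7 (r = 0.88) for Men1. Among the regulators themselves Tet2, Tet3 and Asxl1 formed a second group, with r of 0.87 for Tet2 with Tet3, 0.84 for Tet3 with Asxl1 and 0.71 for Tet2 with Asxl1. Their lowest values of the 12 libraries were in marrow 1267, which was low in long transcripts, and in sarcoma 1268_1270. In log2 CPM these were 3.38 and 4.28 for Tet2, 5.08 and 5.99 for Tet3, and 5.98 and 5.95 for Asxl1. Values of r without these libraries were not computed. Dnmt3b had an r of 0.70 with Ezh2 and 0.66 with Dnmt1, the first near that of Tet2 with Asxl1. Dnmt3a had negative values with Dnmt1 (r = -0.28), Dnmt3b (r = -0.29) and Ezh2 (r = -0.37).

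Levels of different genes were compared only as CPM per kb of transcript, a scale that depends on the transcript chosen. In marrow the order was Dnmt1 at 51.3 CPM per kb, Ezh2 at 23.4, Asxl1 at 22.4, Tet3 at 18.3, Men1 at 13.5, Tet2 at 7.29, Dnmt3a at 3.83 and Dnmt3b at 2.26. Only Dnmt1 and Ezh2 were neighbours whose ranges over the 6 mice did not overlap. In sarcoma Dnmt1 was again first at 28.9 CPM per kb, followed by Asxl1 at 15.5, Tet3 at 14.02, Ezh2 at 13.6, Men1 at 13.03, Tet2 at 6.58, Dnmt3a at 5.12 and Dnmt3b at 1.36. There the neighbours that did not overlap were Men1 and Tet2, and Dnmt3a and Dnmt3b. With the longest annotated Tet3 transcript, of 10.9 kb rather than 5.94 kb, Tet3 would stand at 9.99 CPM per kb in marrow and 7.64 in sarcoma.

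In the marrows short of long transcripts, 4 of these genes stood far below their level in the other marrows. Dnmt1 was at 7.18, 3.78 and 3.17 CPM in marrows 737, 779 and 782, from 90, 41 and 45 counts. That is 36.1- to 81.9-fold below the median of the other marrows. Tet2 had only 12, 1 and 8 counts there, or 0.958, 0.0921 and 0.563 CPM, which in marrows 737 and 782 is 78.8- and 134-fold below that median. Tet3, at 2.63, 4.42 and 1.41 CPM, was 28.1- to 88.5-fold below, and Asxl1, at 5.99, 9.21 and 9.28 CPM, was 18.0- to 27.9-fold below. For these genes the 3 short marrows lay under every other library.

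The genes with shorter transcripts were nearer to the other marrows. Ezh2, with a transcript of 2.79 kb, was at 105, 49.2 and 52.9 CPM in the same marrows, or 73.0% to 156% of the median of the other marrows. Men1, of 2.98 kb, was at 23.5, 25.7 and 19.2 CPM, or 46.9% to 62.7%. Dnmt3b, of 4.32 kb, was at 5.75, 8.66 and 7.60 CPM, or 55.7% to 83.9%.

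The differences did not follow transcript length alone. Dnmt3a has the longest transcript of the 8, at 9.69 kb, yet it stood at 10.1% to 18.5% of that median, with 5.83, 6.91 and 3.80 CPM. Its log2 differences were -2.66, -2.42 and -3.27 in marrows 737, 779 and 782, beside medians of -3.29, -3.40 and -3.25 for all genes over 8 kb. Dnmt3a was thus close to the median in marrow 782 and less reduced than it in marrows 737 and 779. Dnmt1, at 5.37 kb, had -5.14, -6.06 and -6.30, far below the medians of -1.29, -1.39 and -1.14 for genes of 5 to 6 kb and below their lower quartiles of -2.90, -2.86 and -2.71. Which transcript the cells use, and how the reads lie along it, cannot be read from counts per gene.

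**Figure D4:**
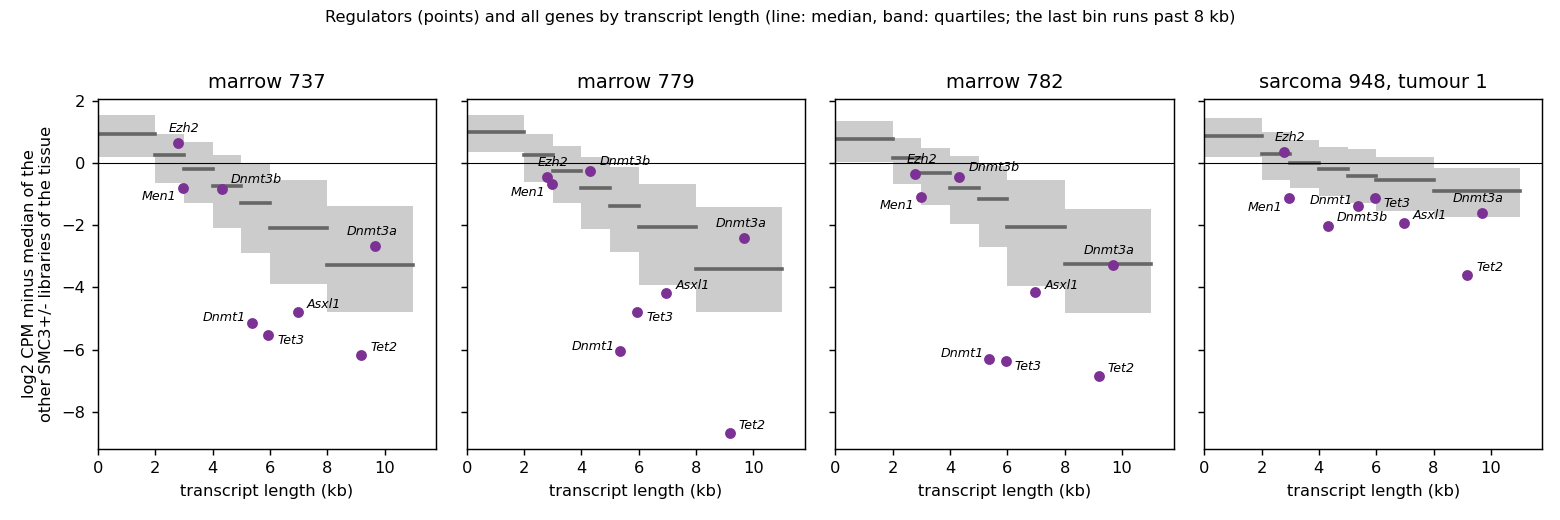
Log2 CPM of each regulator in the 4 libraries short of long transcripts minus the median of the other SMC3+/- libraries of the same tissue, against transcript length in kb. Grey lines and bands are medians and quartiles of all genes by length. Dnmt1, Tet3, Tet2, Asxl1 and Men1 lie below the bands in the 3 marrows, whereas Ezh2, Dnmt3b and Dnmt3a lie within them.

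In tumour 1 of mouse 948 the differences were smaller than in the short marrows for Dnmt1, Tet2, Tet3, Asxl1 and Dnmt3a, and larger for Dnmt3b and Men1. Against the other SMC3+/- sarcoma libraries Tet2, at 6.76 CPM, had a log2 difference of -3.60 and Dnmt3b, at 1.21 CPM, one of -2.03. Asxl1, Dnmt3a, Dnmt1, Tet3 and Men1 had -1.93, -1.60, -1.38, -1.14 and -1.13, and Ezh2 alone was higher, at 0.36. Against tumour 2 of the same mouse, Tet2 was at a ratio of 0.0686 and Ezh2 at 2.69, so the tumours of this mouse differed in opposite directions for these genes. Their markers differed as well, with the 10 skeletal muscle genes at a sum of 3969 CPM in tumour 1 and 32.5 CPM in tumour 2, and the proliferation genes at a mean log2 CPM of 6.60 and 4.99. The part of these in the ratios was not tested. With the 4 libraries included, 0 of the 8 genes were called between tissues (edgeR; of 14730 genes, 4.49% were higher, 0.0543% lower and 4.55% either). The SE of the Dnmt1 change then grew from 0.50 to 1.07 and that of Tet2 from 0.58 to 1.17.

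The sarcoma of mouse 841, NPM1cA and wild type for SMC3, was set beside the 4 SMC3+/- sarcoma mice, a comparison of a single tumour that assumes it varies as they do. Smc3 itself was at 142 CPM in this tumour and at 63.3 to 216 CPM in the SMC3+/- sarcoma libraries outside the short set, so its level did not separate the genotypes. Dnmt1 was at 200.1 CPM, Dnmt3a at 37.2 CPM and Dnmt3b at 4.81 CPM. Tet2 was at 68.5 CPM, Tet3 at 84.4 CPM, Ezh2 at 47.6 CPM and Asxl1 at 112 CPM. All 7 lay inside the range of the 4 SMC3+/- mice. Men1, at 51.9 CPM, was above all 4, which ran from 33.4 to 44.7 CPM, as 9.85% of all genes tested were. Its log2 change of 0.53 had an interval from -0.74 to 1.79 (edgeR adjusted p = 1). None of the 8 genes was called, and 0% of 17555 genes were called in either direction, with 211 at an unadjusted p under 0.05. DESeq2 called 52 genes and limma-voom 0, none of them among the 8. The intervals ran as wide as -2.17 to 3.11 for Dnmt1, so changes of several fold in either direction were not detectable with 1 tumour.

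The partners of these enzymes were followed through lists of the same pathways. Of 25 genes of the methylation machinery 0 were called, with 19 negative and 6 positive values and a median log2 change of -0.35, beside 0.04 for all genes. Without sarcoma 1268_1270 the median was -0.03, with 14 negative and 11 positive values. The smallest adjusted p values were those of Zbtb4, a reader of methylated DNA (log2 change 2.29, interval 0.92 to 3.66, edgeR adjusted p = 0.095), of Parp1, a DNA break sensor (-0.83, edgeR adjusted p = 0.213), and of Trim28, a corepressor (-0.72, edgeR adjusted p = 0.292). With the short libraries included Zbtb4 was called higher (log2 change 2.74, edgeR adjusted p = 0.0456). Uhrf1, which guides DNMT1 to newly replicated DNA, was at 3.25 CPM in 1268_1270, 28.5 CPM in tumour 2 of mouse 948, 140 CPM in mouse 1267, and 58.2 and 56.5 CPM in mouse 2721. These are in the same order of mice as Dnmt1.

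Of 10 tested PRC2 genes beside Ezh2 0 were called, with a median of -0.26, or -0.09 without sarcoma 1268_1270. Eed, the subunit that binds methylated histone H3, had -0.55 (edgeR adjusted p = 0.389), Jarid2 -0.62 (edgeR adjusted p = 0.498), Rbbp7 -0.36 (edgeR adjusted p = 0.606) and Ezh1 0.39 (edgeR adjusted p = 0.664). Of 26 genes of PRC1 and of the deubiquitinase complex of ASXL1 0 were called, with a median of -0.13. In that list Hcfc1 had -0.76 (edgeR adjusted p = 0.425) and Bmi1, a PRC1 subunit, 0.44 (edgeR adjusted p = 0.589).

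Of 20 genes that work with menin and MLL 0 were called, 18 with negative values and a median of -0.36. Rbbp5, a core subunit of MLL complexes, had -0.55 (edgeR adjusted p = 0.24), Setd1b -0.91 (edgeR adjusted p = 0.3) and Mllt1, which binds acetylated histones, -0.51 (edgeR adjusted p = 0.607). Of 20 other chromatin genes of AML 0 were called and 19 were negative, with a median of -0.39. Whsc1 had -0.84 (edgeR adjusted p = 0.22), the histone demethylase Kdm1a -0.55 (edgeR adjusted p = 0.364) and the chromatin remodeller subunit Arid1a -0.68 (edgeR adjusted p = 0.527). Of 21 tested enzymes around citrate and 2-oxoglutarate 0 were called, with 16 positive values and a median of 0.23. Without sarcoma 1268_1270, the library with high adipocyte genes, 15 were negative and the median was -0.12. The list summed to 4953 CPM in that sarcoma, to 2035 to 2534 CPM in the other sarcoma libraries outside the short set and to 2013 to 2582 CPM in the 6 marrows. Slc25a1, the mitochondrial citrate carrier, had 0.97 (edgeR adjusted p = 0.28), Aco1, the cytosolic aconitase, 1.06 (edgeR adjusted p = 0.408) and Got2, a mitochondrial aminotransferase, -0.66 (edgeR adjusted p = 0.317). With pan-leukocyte scaling the medians of these 6 pathway lists were 1.36 to 2.95, beside 2.07 for all genes.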

How the data were processed

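Per the labels' protocols, poly(A) RNA was selected, spike-in RNA was added before NEBNext library preparation. Per the submitters' processing notes, the tools were STAR, DESeq and DESeq2 and the build mm9, with no version stated. No source used here gives the annotation or strand setting, so reads of a gene and an antisense partner cannot be told apart. The authors deposited raw read counts per gene symbol for 16 libraries, with 0 columns of other samples. From these, CPM on TMM-scaled totals and edgeR 4.0.16 quasi-likelihood tests (robust, filterByExpr, R 4.3.3) were computed, with tumours of a mouse summed and the mouse as replicate. The SE is the change divided by the root of F. Log2 CPM used a prior count of 2. DESeq2 1.42.0 and limma 3.58.1 were alternatives, as were other scalings, filters, blocks and left-out mice. Ratios were tested by exact permutation, which ignored that mice 1267 and 2721 are in both groups, and no paired form was run. Transcript lengths came from GENCODE on GRCm38, matched by symbol or synonym for 98.3% of symbols. The tests were checked on simulated counts. The genes and lists were chosen with earlier results of these data known. Named genes are all members, up to 3 per pathway list with the smallest adjusted p, the 2 most correlated genes per member whose mean log2 CPM reached 3, and Uhrf1, Ezh1, Smc3 and markers, added after values were seen. A few genes that met these rules are not reported here. Mice 1267 and 2721 pair the tissues per the labels. Same-mouse deviations from the tissue means correlated at 0.373 and 0.0658. No libraries matched within sampling noise, with the closest pair, the tumours of mouse 2721, whose chi-square per gene averaged 18.6. Counts carry no molecular identifiers, and intervals assume that the mice of a group are independent.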

Additional observations from a re-analysis of the deposited data

Results flagged for a closer look

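Of 16 groups of values checked (8 genes in 4 sarcoma mice and in 6 marrow mice), 1 had a sample far from the others, where chance flags about 1 in 20. Tet3 in the marrow of mouse 1267 was at 33.8 CPM, and the next marrow was at 102 CPM, a gap of 0.629 of the range of the 6 marrows. That library also had the lowest level of transcripts over 6 kb among the 12 libraries not set apart, at a median log2 deviation of -0.74, and its part in the Tet3 value was not tested.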

How the results depend on the processing

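Over 26 alternatives, 188 of 208 values of the 8 genes between tissues kept their sign and stayed uncalled, 19 changed sign and 1, Dnmt3a with pan-leukocyte scaling, was called. The count of the 8 called was 0 under every alternative but that scaling, where it was 1 (higher). Over all genes, 300 higher and 3 lower calls became 662 and 8 with all 13 SMC3+/- samples, 563 and 139 with an offset for transcript length on these, 538 and 52 with DESeq2, 5997 and 5 with pan-leukocyte scaling, 526 and 18 with a random effect for the mouse, and 65 and 0 without sarcoma 1268_1270 and marrow 1267, which was chosen after seeing the data. Lower calls were 5 with limma-voom, 1 with RLE factors and 1 with at least 10 counts in 4 samples. Leaving out 1 mouse gave 62 to 356 higher and 0 to 13 lower calls, the fewest higher without sarcoma 1268_1270. With the mouse as a replicate block, calls were 125 higher and 19 lower, and 81 and 33 in mice 1267 and 2721 alone; Tet2, Tet3 and Men1 turned to 0.65, 0.049 and 0.18 in the first and 0.65, 0.048 and 0.18 in the second, and the block changed no call of the 8. Pan-leukocyte scaling gave 0.014 for Dnmt1, 0.99 for Dnmt3b, 0.89 for Tet2, 1.40 for Tet3, 0.42 for Ezh2, 1.04 for Asxl1 and 1.85 for Men1. Relative to its median of all genes, 2.07, these 7 remained negative, between -2.05 and -0.22. Without 1268_1270 as well, an alternative chosen after seeing the data, Tet2, Tet3, Asxl1 and Men1 were at 0.37, 0.046, 0.035 and 0.37, Dnmt1, Dnmt3b and Ezh2 at -0.084, -0.19 and -0.010, and Dnmt3a at 0.78, uncalled, with 216 genes higher and 2 lower. The median of all genes in that fit was 0.50, and of the 8 genes only Dnmt3a was above it. The length offset moved the median of all genes to -0.49 and Dnmt3a to -0.39, which is 0.11 above that median. Leaving out 1 mouse moved Tet2 between -0.63 and 0.058. The log2 ratio of Tet3 to Tet2 differed by -0.49 to 0.076 when 1 mouse was left out, with the sign changed without sarcoma 948, sarcoma 2721 or marrow 1267, and with all 13 samples the ratios of Dnmt3b to Dnmt3a and of Ezh2 to Ezh1 differed by -1.96 and -1.54 and passed the threshold. For mouse 841, 61 of 72 values of the 8 genes kept their sign and 0 were called. Pan-leukocyte scaling moved the median of all genes in this comparison to -1.92. It turned Dnmt1 to -0.12, Tet2 to -0.54, Tet3 to -1.39, Ezh2 to -0.48, Asxl1 to -1.12 and Men1 to -1.11, all above that median. DESeq2 turned Tet3 to -9.21e-07. DESeq2 called 6 genes higher and 46 lower there, and leaving out 1 mouse gave 0 to 1 higher calls. These left-out fits moved Dnmt3b between -0.35 and 0.10, Tet2 between -0.044 and 0.63, Tet3 between -0.011 and 0.23, and Asxl1 between -0.069 and 0.54. The causes were not tested. The planned ratio of Idh2 to Idh1 was not run. Averaging the log ratios of a mouse's tumours, chosen after seeing the data, in place of summing counts changed no call. Counting error is largest for Tet2 in the short marrows, which had 1 to 12 counts.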
